A study of Homo sapiens with 9 samples.

Results

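Rh30 cells grown as spheres were compared with Rh30 cells grown as adherent monolayers, across every gene on the array. Rh30 is an established human cell line of fusion-positive rhabdomyosarcoma, a childhood soft tissue cancer with features of skeletal muscle, and it carries the PAX3-FOXO1 fusion gene. The comparison takes all 3 arrays labelled spheres and all 3 labelled adherent, 6 of the 9 arrays of the series, and all 54613 probe sets that are not array controls. The other 3 arrays, from xenografts, entered the fit only through the estimate of spread. The adherent cultures had RPMI with 10% FBS. The spheres had spent 48 h in Neurobasal media to which B27 (1X), bFGF at 80 ng/ml, insulin at 50 µg/ml and EGF at 40 ng/ml were added. No agent or allele other than these separates the groups, and both come from 1 cell line. Attachment, serum, basal medium and added factors changed together, so their parts in any difference cannot be told apart. The study describes the arrays as biological triplicates.

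Sphere culture keeps cells off the plastic in serum-free medium so that they grow as floating clusters, and it is widely used to enrich cells with stem-like behaviour. Cells that leave serum and a spread shape commonly adjust their cell cycle, lipid synthesis and adhesion programmes, and cells inside a cluster receive less oxygen and nutrient. When amino acids run short or the endoplasmic reticulum is strained, the transcription factor ATF4 switches on genes for amino acid supply and stress control.

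The values are log2 RMA values, in which a difference of 1 is a 2-fold difference in signal. RMA corrects each array for background and combines the probes of a probe set into 1 value. Pearson correlations across probe sets were 0.9947 to 0.9977 between arrays of 1 group and 0.9765 to 0.9825 between groups. Of 10 markers of the skeletal muscle lineage of rhabdomyosarcoma, 9 were above the median probe set, and MYOD1, the transcription factor that sets muscle identity, read 11.06, 11.17 and 11.14 on the adherent arrays and 11.06, 11.08 and 11.06 on the sphere arrays, which overlap. Of the 10 muscle markers 5 were lower in spheres and 0 higher. All 4 leukocyte markers were below the median probe set, with group means of 2.45 to 4.50. In at least 1 group, 4 of 5 fibroblast, 3 of 5 endothelial and 3 of 5 epithelial markers were above it. EPCAM, an epithelial adhesion molecule, rose 2.04-fold (adjusted p = 0.0129 from limma), while CDH1 and the keratins KRT8, KRT18 and KRT19 did not pass the test. The signal of the 3′ end of ACTB minus that of its 5′ end, a sign of RNA integrity, was 2.07, 2.67 and 2.44 on the adherent arrays and 3.15, 3.31 and 3.15 on the sphere arrays (two-sided p = 0.1 by exact permutation, which is the floor for 3 arrays against 3). The corresponding GAPDH difference overlapped between the groups (exact permutation p = 0.5). The part of this 3′ bias in the results was not tested.

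The transcriptome of the spheres differed broadly from that of adherent cells. Of 19775 genes, each read at its brightest probe set, 5887 (29.8%) passed an adjusted p of 0.05 in limma, 2671 higher in spheres (13.5%) and 3216 lower (16.3%). Changes of at least 2-fold numbered 606 upward (3.06%) and 543 downward (2.75%), and over all probe sets 14185 passed (26%). The sphere and adherent arrays did not overlap for 9429 genes (47.7%). The median log2 change over all genes was -0.04. Changed genes were mostly well expressed. Among the 3955 dimmest genes 107 were higher and 81 lower, and among the 3955 brightest 744 were higher and 1222 lower. Among 10523 genes with several probe sets, 5520 had at least 1 changed probe set and 493 had probe sets called in both directions.

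**Figure D1:**
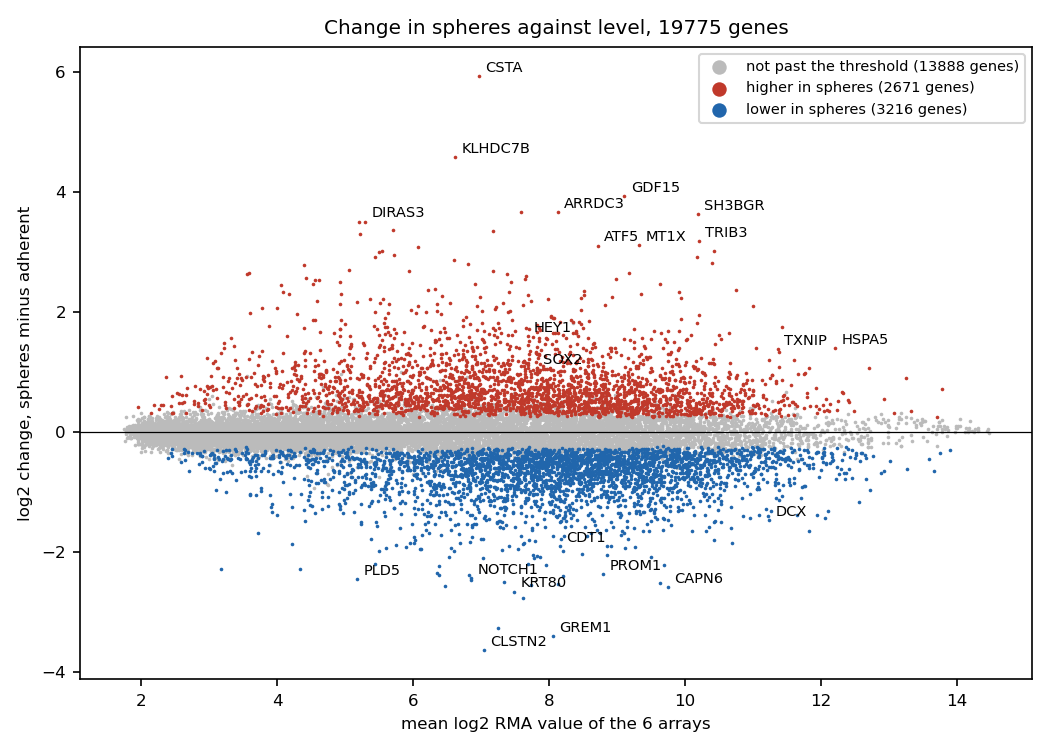
Log2 change in spheres (vertical) against the mean log2 RMA value of the 6 arrays (horizontal) for 19775 genes, with genes past the threshold in red (2671 higher) and blue (3216 lower). The largest rise is that of CSTA at 5.93 and the largest fall that of CLSTN2 at -3.64.

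The largest rise was that of CSTA, which encodes cystatin A, an inhibitor of cysteine proteases best known from epithelia. Its log2 values were 4.0, 3.84 and 4.18 on the adherent arrays and 10.18, 9.73 and 9.9 on the sphere arrays, a 60.8-fold rise (log2 change 5.93, SE 0.17, adjusted p = 9.56e-09 from limma). The adherent values lay below the median of all probe sets, 4.78 to 4.83, and the sphere values above the upper quartile. KLHDC7B, a kelch domain gene, read 4.27, 4.31 and 4.43 on the adherent arrays and 9.12, 8.72 and 8.88 on the sphere arrays, and both of its probe sets rose. DIRAS3, an imprinted Ras-family GTPase that restrains growth, read 3.43, 3.59 and 3.64 on the adherent arrays and 7.09, 6.74 and 7.33 on the sphere arrays (log2 change 3.5, SE 0.15, adjusted p = 6.42e-08 from limma). Like CSTA, KLHDC7B and DIRAS3 rose from low adherent signals. The largest rises and falls were taken only from genes whose arrays do not overlap between the groups.

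Some large rises began from moderate signals. GDF15, a secreted stress cytokine of the TGF-beta family, read 6.85, 7.05 and 7.53 on the adherent arrays and 11.05, 11.08 and 11.11 on the sphere arrays (15.3-fold), and all 3 of its probe sets rose. SH3BGR, an SH3-binding protein gene expressed in heart and skeletal muscle, read 8.37, 8.19 and 8.58 on the adherent arrays and 12.06, 11.97 and 12 on the sphere arrays (12.4-fold). The sphere arrays lay within a narrow band for both genes. NIBAN1, a stress-induced regulator of translation, started lower and read 3.93, 4.13 and 4.02 on the adherent arrays and 7.34, 7.39 and 7.43 on the sphere arrays (10.3-fold). CH25H, the enzyme that makes 25-hydroxycholesterol, rose 9.8-fold (log2 change 3.29, SE 0.19, adjusted p = 4.34e-07 from limma), SLFN5, of the Schlafen family, 10.1-fold and BEX2 8.41-fold. MAP2K6, a kinase that activates p38, rose 11.4-fold at its brightest probe set, but its other probe set had a log2 change of 0.06.

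The largest fall was that of CLSTN2, a calsyntenin of neuronal membranes, with 8.78, 9.02 and 8.82 on the adherent arrays and 5.13, 5.24 and 5.33 on the sphere arrays (log2 change -3.64, SE 0.15, adjusted p = 5.49e-08 from limma). Its second probe set fell too, by 2.33 on the log2 scale. GREM1, a secreted inhibitor of BMP ligands, read 9.76, 9.91 and 9.62 on the adherent arrays and 6.17, 6.5 and 6.44 on the sphere arrays, at 0.0949 times the adherent level. LEFTY1, an inhibitor of Nodal, read 8.87, 9.01 and 9.13 on the adherent arrays and 6.09, 6.41 and 6.23 on the sphere arrays. Both antagonists were well above the median probe set on every adherent array. Further falls among the largest were those of KRT80, a keratin (log2 change -2.66), CAPN6, of the calpain family (log2 change -2.59), RASSF4, a Ras-association domain gene (log2 change -2.57), GALNT10, which starts mucin-type O-glycans (log2 change -2.55), and NANOS1, an RNA-binding repressor of translation (log2 change -2.52). RMST, a long noncoding RNA known to bind SOX2, fell too (log2 change -2.5), as did GAS2L1, which links actin to microtubules (log2 change -2.47), and DOK7, the activator of the muscle kinase MuSK (log2 change -2.4). CAPN6, RASSF4 and GALNT10 each also had a probe set with little change, at log2 changes of -0.20, -0.01 and 0.01. So had GAS2L1 (-0.09), and RMST fell at only 1 of its 3 probe sets, with -0.07 at the least changed.

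**Figure D2:**
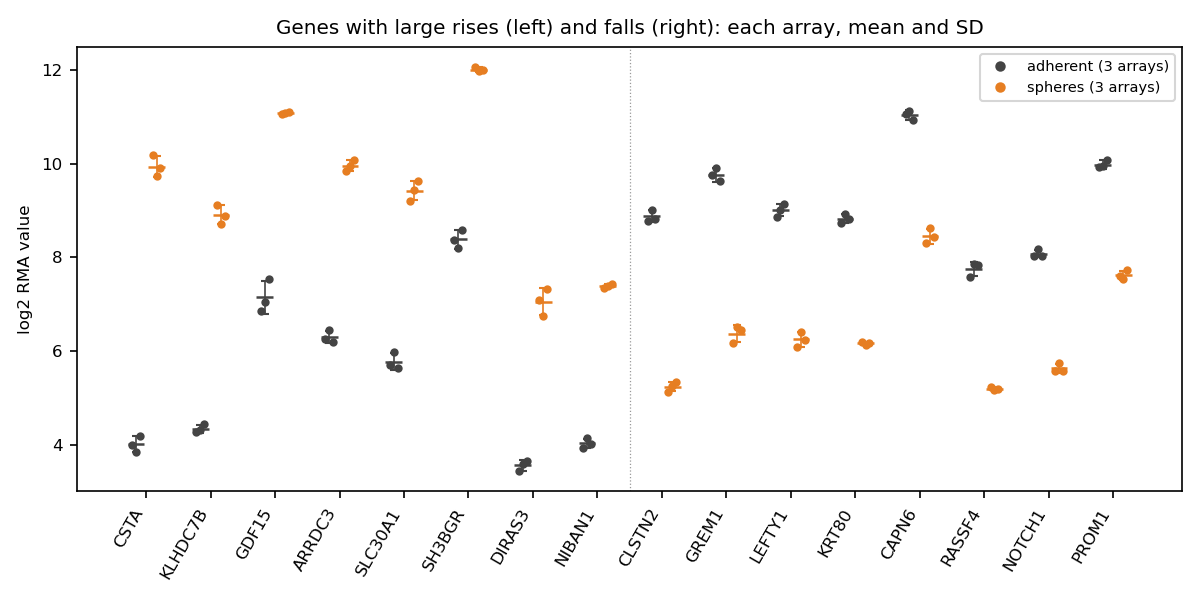
Log2 RMA values of 16 genes on each adherent (grey) and sphere (orange) array, with group means and SD; rises are left of the dotted line and falls right of it. Apart from PROM1, the genes were taken from those whose arrays do not overlap between the groups. CSTA moves from a mean of 4.01 to 9.94.

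Gene lists put these single genes in context. They are described by the number of measured members that passed the test in each direction and by their median log2 change. Beside these stand the 13.5% of all genes that were higher, the 16.3% that were lower and the median of -0.04. Bright genes fell more often than others (1222 of the 3955 brightest), and the lists were not matched for brightness.

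**Figure D3:**
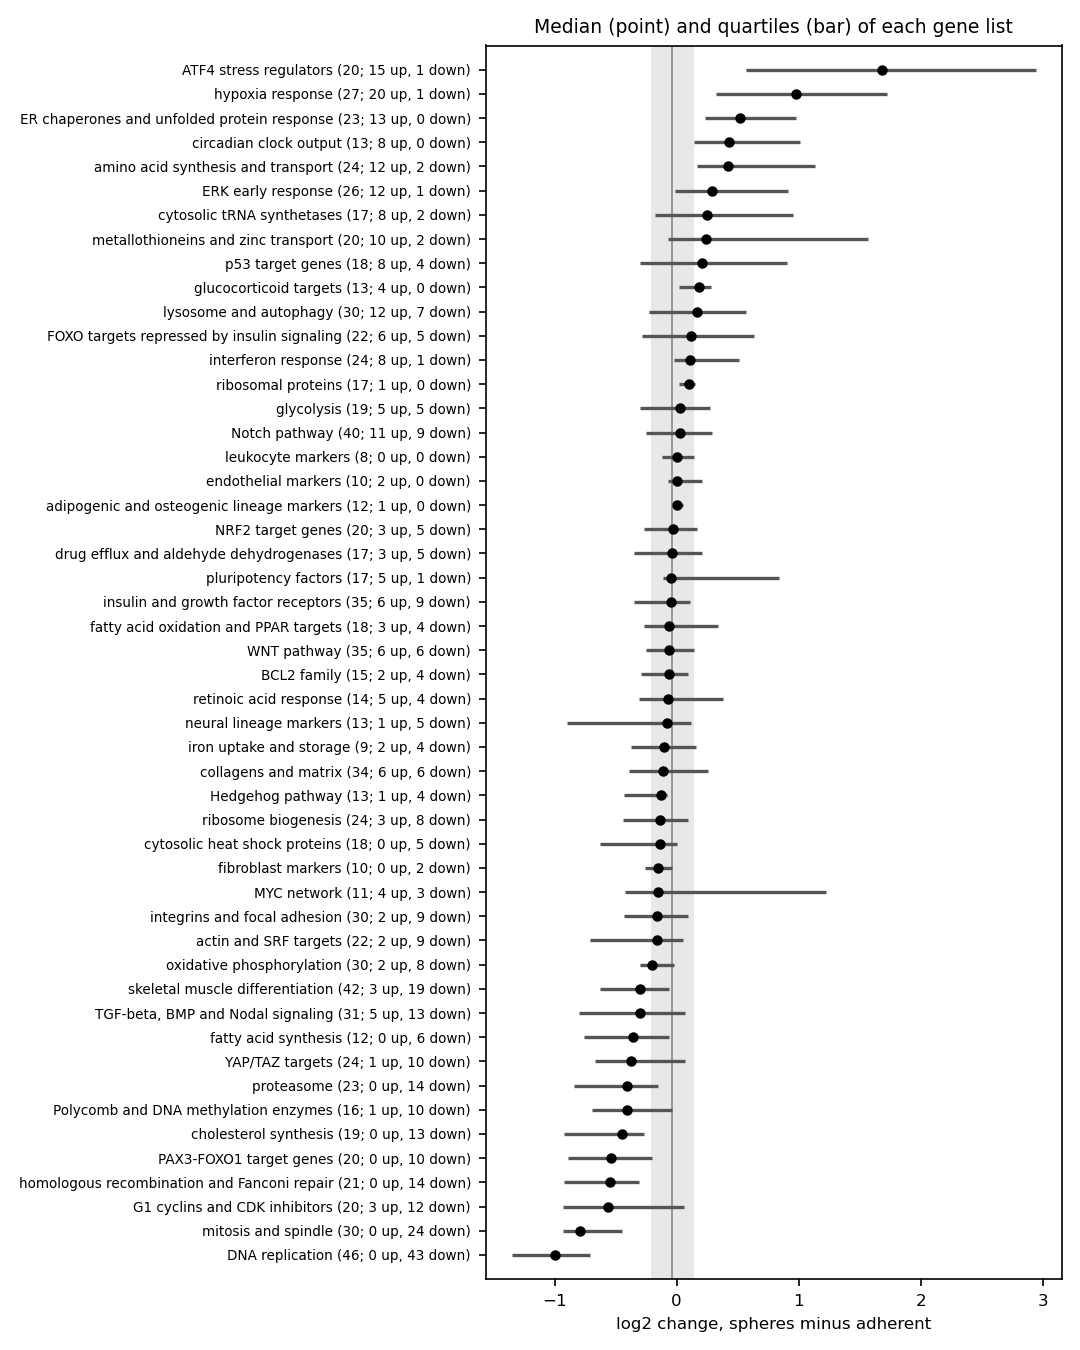
Points give the median log2 change in spheres for a gene list and bars its quartiles, with the number measured and the numbers called higher and lower beside its name; the grey band marks the quartiles of all genes. The lowest median, -1.0, is that of DNA replication, and the highest, 1.68, that of the ATF4 stress regulators.

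The machinery of DNA replication was lower in spheres at nearly every step. Of 46 measured genes, 43 fell and 0 rose, with a median of -1.0. In bulk RNA, fewer cells in S phase and less of each RNA per cell cannot be told apart, here or for the other gene lists. All 12 origin licensing genes fell (median -1.31), as did 24 of 27 fork genes (median -0.91) and all 7 nucleotide supply genes (median -1.11). The exceptions were PRIM1, POLD2 and CHTF18, at log2 changes of -0.20, 0.17 and 0.14. The replicative helicase fell as a set: MCM2 to MCM7 ranged from -0.95 (MCM3) to -1.36 (MCM5). PCNA, the sliding clamp of the polymerases, read 11.82, 12.05 and 11.88 on the adherent arrays and 10.52, 10.47 and 10.58 on the sphere arrays (log2 change -1.4, SE 0.11, adjusted p = 3.62e-06 from limma). TYMS, which makes the thymidine nucleotide, read 12.59, 12.64 and 12.66 on the adherent arrays and 11.27, 11.23 and 11.26 on the sphere arrays. RRM2, the regulated subunit of ribonucleotide reductase, read 12.7, 12.91 and 12.7 on the adherent arrays and 11.38, 11.45 and 11.52 on the sphere arrays. These 3 genes were very bright in adherent cells and remained bright in spheres, at close to 0.4 times the adherent signal.

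Promoters of the replication genes often hold a binding motif of the E2F factors, which switch these genes on at the start of S phase. In RefSeq windows of build GRCh38.p14, from 250 bases before to 50 after each start, the letters TTTCCCGC or TTTGGCGC on either strand were found in 15 of the 41 members with a window (36.6%) and in 619 of 27305 promoters (2.27%). None of the motifs searched here contains another. Stretches of 80 bases before the start are shown for the 4 changed members with the largest falls that hold the motif there. The match is in capitals. Members on a single chromosome were left out of this choice, here and for the stretches below. Each stretch was placed around its matches, so where a match lies within a stretch is not a result.
CDT1, chr16:88803709-88803788, plus strand: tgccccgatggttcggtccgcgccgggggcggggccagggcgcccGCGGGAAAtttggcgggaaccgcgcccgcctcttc
GINS2, chr16:85688955-85689034, minus strand: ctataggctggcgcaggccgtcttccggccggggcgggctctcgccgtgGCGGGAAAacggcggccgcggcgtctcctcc
POLA1, chrX:24693745-24693824, plus strand: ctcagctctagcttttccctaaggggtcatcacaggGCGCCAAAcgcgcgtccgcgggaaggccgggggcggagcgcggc
TYMS, chr18:657573-657652, plus strand: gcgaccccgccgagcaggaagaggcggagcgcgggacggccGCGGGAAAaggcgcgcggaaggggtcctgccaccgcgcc
CDT1, which loads the helicase at origins, fell most (log2 change -1.91), followed by GINS2, of the active helicase (log2 change -1.58), POLA1, the primase-associated polymerase (log2 change -1.48), and TYMS (log2 change -1.38). One probe set of GINS2 had a log2 change of -0.06. A match is a description of these letters and not evidence of binding.

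Genes of later cell cycle steps were lower as well. Of 30 mitosis and spindle genes, 24 fell and 0 rose (median -0.79), among them SPC25 and SPC24 of the kinetochore (log2 change -1.41 and, at 1 of its 2 probe sets, log2 change -1.34) and KIF11, the motor that separates spindle poles (log2 change -1.23). CDK1, the mitotic kinase, had a log2 change of -0.33 and did not pass. The CHR motif TTTGAA, found in promoters of mitotic genes, lay in 17 of 26 of their windows (65.4%) and in 15.6% of all windows. Of 21 genes of homologous recombination and Fanconi repair, 14 fell and 0 rose (median -0.55), with FANCI at 0.404 times the adherent level. Among G1 regulators, 11 of 14 cyclins, kinases and partners fell, led by CCNE2, the cyclin that drives S phase entry, with 10.05, 10.29 and 9.92 on the adherent arrays and 8.07, 8.12 and 8.31 on the sphere arrays (log2 change -1.93, SE 0.21, adjusted p = 3.29e-05 from limma). In contrast 3 of 6 CDK inhibitors rose: CDKN2B 1.88-fold, CDKN1B 1.64-fold and CDKN1A 1.57-fold. RB1, the brake on E2F, was lower at 1 of its 2 probe sets (log2 change -1.05), and the other had a log2 change of 0.14. The second CDKN2B probe set had a log2 change of -0.14. Of 16 Polycomb and DNA methylation enzymes, 10 fell and 1 rose (median -0.41). UHRF1, which guides DNMT1 to newly made DNA, read 11.05, 11.32 and 11.04 on the adherent arrays and 9.51, 9.38 and 9.53 on the sphere arrays, and DNMT1, the maintenance methyltransferase, fell to 0.492 times and CBX2, a Polycomb reader, to 0.288 times the adherent level at its brightest probe set. The 4 CBX2 probe sets disagreed, with 1 called lower and 1 called higher, from -1.79 to 1.2 on the log2 scale. EZH1 rose 1.34-fold where EZH2, its proliferation-linked paralogue, was at 0.757 times.

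**Figure D4:**
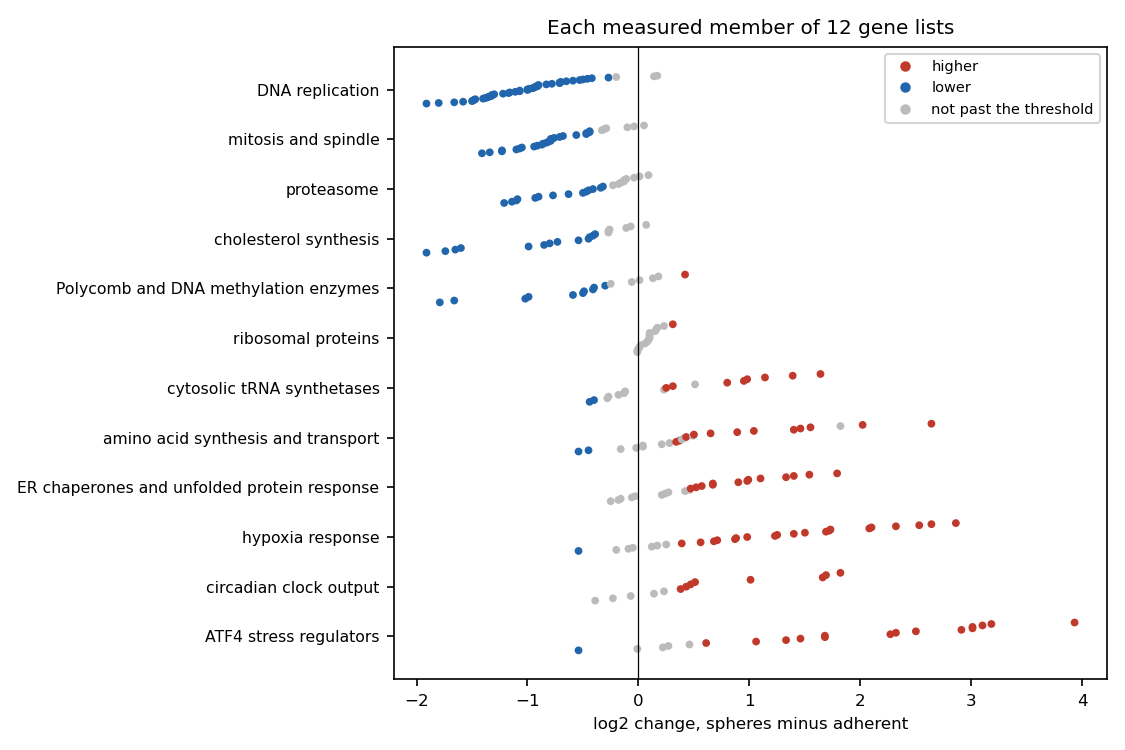
Log2 change in spheres of every measured member of 12 gene lists, with members past the threshold in red (higher) and blue (lower) and the others in grey. Of 46 DNA replication genes 43 lie in blue, of 20 ATF4 stress regulators 15 lie in red, and 16 of 17 ribosomal protein genes are grey.

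Protein turnover and synthesis genes did not move as a block. Of 23 proteasome subunit genes, 14 fell and 0 rose (median -0.41). PSMB3, a subunit of the catalytic core, read 11.13, 11.03 and 11.24 on the adherent arrays and 10.02, 9.86 and 9.9 on the sphere arrays (log2 change -1.21, SE 0.09, adjusted p = 3.08e-06 from limma). PSMD2, of the regulatory cap, read 10.83, 10.87 and 10.97 on the adherent arrays and 9.78, 9.66 and 9.79 on the sphere arrays. PSMB6 and PSMD1 fell as well (log2 change -1.1 and log2 change -1.09), whereas PSMA1, another core subunit, read 11.35, 11.36 and 11.36 on the adherent arrays and 11.36, 11.36 and 11.37 on the sphere arrays. Falls therefore reached 4 subunits by more than 2-fold and passed others by. Ribosomal proteins stayed close to their adherent levels: 1 of 17 passed, RPL3, which rose 1.24-fold, and log2 changes ran from -0.01 to 0.31. Without adherent replicate 1 or 2 or sphere replicate 1 or 3, RPL3 lost its call and 0 passed. Of 24 ribosome biogenesis factors, 8 fell, led by UTP20 (log2 change -1.23) and POLR1A, the largest subunit of RNA polymerase I (log2 change -0.99), and 3 rose. POLR1A had another probe set called higher (log2 change 0.35), and its call was lost with averaged probe sets (-0.21). Heat shock proteins had 5 of 18 members lower and 0 higher. Their 27.8% lower was close to the share among the 3955 brightest genes, of which 1222 fell. The list was drawn up for cytosolic chaperones but its largest fall was that of HSPE1, a mitochondrial co-chaperonin (log2 change -0.81). The count lower was 3 without adherent replicate 2, sphere replicate 2 or sphere replicate 3. Lysosome and autophagy genes split, with 12 of 30 higher, led by CTSL, a lysosomal protease (log2 change 1.65), and 7 lower, led by CTSA (log2 change -1.11).

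The stress regulators under ATF4 gave the largest median of any list. Of 20 measured, 15 rose and 1 fell (median 1.68), and 14 of the 15 rose at least 2-fold. DDIT3, the stress transcription factor CHOP, read 8.9, 8.67 and 9.19 on the adherent arrays and 12.1, 11.81 and 11.88 on the sphere arrays. CEBPB, a partner of CHOP, read 8.55, 8.46 and 9.15 on the adherent arrays and 11.63, 11.66 and 11.61 on the sphere arrays, and PPP1R15A, which ends the translational arrest of the stress response, read 6.21, 6.16 and 6.21 on the adherent arrays and 8.72, 8.72 and 8.63 on the sphere arrays. The sphere arrays of each gene lay within 0.30 of one another, and far above all adherent arrays. NUPR1, a small stress-induced chromatin protein, rose 8.05-fold, ATF5 8.59-fold, TRIB3, an inhibitor of AKT and of ATF4 itself, 9.04-fold and SESN2, which restrains mTORC1, 4.83-fold. ATF4, controlled largely at translation, rose 2.08-fold (log2 change 1.06, SE 0.12, adjusted p = 6.16e-05 from limma). STC2 fell at its brightest probe set (log2 change -0.54), and CHAC1 (0.46) and FGF21 (-0.01), further targets, did not pass.

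Amino acid supply followed in part. Of 13 synthesis genes 9 rose and 2 fell, and of 11 transporters 3 rose and 0 fell. CTH, which makes cysteine, read 6.25, 6.53 and 6.49 on the adherent arrays and 8.19, 8.58 and 8.55 on the sphere arrays (4.05-fold), and ALDH1L2, of mitochondrial folate metabolism, rose 6.23-fold from a low signal at 1 of its 3 probe sets. ASNS, asparagine synthetase, rose 2.92-fold at its brightest probe set, and its other probe set had a log2 change of -0.12. PHGDH, the first enzyme of serine synthesis, fell to 0.733 times the adherent level. SLC7A11, the cystine importer, read 7.23, 7.37 and 7.75 on the adherent arrays and 9.33, 9.22 and 9.26 on the sphere arrays. Its arrays did not overlap, yet it did not pass (adjusted p = 0.055 from limma, whose spread also counts the xenograft arrays). With the 6 sphere and adherent arrays alone, 17 members of the amino acid list rose in place of 12. Of 17 cytosolic tRNA synthetases, 8 rose and 2 fell (median 0.25): WARS1 (3.12-fold), AARS1 (2.62-fold), SARS1 (2.2-fold) and GARS1 (1.97-fold) led, and VARS1, at 1 of its 2 probe sets, fell to 0.735 times.

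ATF4 binds composite elements with the letters TGATGNAAN. On either strand these were present in 4 of 18 windows of the stress regulators (22.2%) and 4 of 18 of the amino acid genes (22.2%). They lay in 3 of 14 windows of the synthetases (21.4%) and in 1023 of 27305 promoters (3.75%). Among changed members with a window, 2 of 15 stress regulators, 2 of 10 amino acid genes and 2 of 8 synthetases held a match. The stretches of the 4 most changed members with a match before the start are shown with the match in capitals.
ATF3, chr1:212565180-212565259, plus strand: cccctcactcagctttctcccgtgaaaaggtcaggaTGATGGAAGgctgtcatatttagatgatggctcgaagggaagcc
GOT1, chr10:99430780-99430859, minus strand: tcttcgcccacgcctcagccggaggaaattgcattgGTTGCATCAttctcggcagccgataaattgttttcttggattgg
AARS1, chr16:70289651-70289730, minus strand: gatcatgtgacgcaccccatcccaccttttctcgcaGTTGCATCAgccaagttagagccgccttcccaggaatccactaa
HERPUD1, chr16:56931929-56932008, plus strand: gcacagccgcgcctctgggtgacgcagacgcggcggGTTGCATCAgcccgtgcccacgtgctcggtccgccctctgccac
ATF3, a stress transcription factor, rose 3.21-fold, GOT1, which makes aspartate, 2.63-fold and HERPUD1, of endoplasmic reticulum protein disposal, 2.52-fold. The same letters, GTTGCATCA, occur in the GOT1, AARS1 and HERPUD1 stretches.

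Chaperones and sensors of the endoplasmic reticulum were higher in 13 of 23 cases and lower in 0 (median 0.52). HSPA5, the chaperone BiP, read 11.45, 11.66 and 11.43 on the adherent arrays and 12.63, 13.1 and 13.02 on the sphere arrays (log2 change 1.4, SE 0.15, adjusted p = 2.6e-05 from limma), DNAJB9, its co-chaperone, rose 2.9-fold and HYOU1 1.99-fold. Of the sensors, ERN1, the kinase IRE1, rose 3.46-fold and XBP1, the factor it activates, 2.14-fold. Calreticulin (CALR, log2 change -0.03) and PDIA3 (0.21) did not pass.

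Of 27 hypoxia response genes, 20 rose and 1 fell (median 0.98). LOX, a collagen crosslinking enzyme, read 5.12, 5.38 and 5.04 on the adherent arrays and 7.59, 8.29 and 8.23 on the sphere arrays. SLC2A3, a glucose transporter, read 3.16, 3.44 and 3.45 on the adherent arrays and 5.04, 6.34 and 6.26 on the sphere arrays, and ADM, the vasodilator adrenomedullin, read 6.12, 6.21 and 6.19 on the adherent arrays and 7.43, 8.89 and 8.43 on the sphere arrays. No sphere array fell to the adherent level, but sphere replicate 1 was the lowest sphere array for all 3 genes. It lay nearest to the adherent arrays for 18 of the 20 higher members, against 3 of 15 higher ATF4 stress regulators. Over all 2575 higher genes without ties, sphere replicate 1 was nearest for 1207, sphere replicate 2 for 970 and sphere replicate 3 for 398. VEGFA rose 6.22-fold, P4HA1, a collagen hydroxylase, 3.29-fold, BNIP3, a mitophagy receptor, 2.37-fold and PDK1, which keeps pyruvate out of mitochondria, 2.35-fold. EGLN3 (0.17) and ANGPTL4 (-0.09) did not pass. The HIF core letters ACGTG lay in 11 of 22 of their windows (50%) and in 21.4% of all windows.

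Energy and lipid genes changed in part. Glycolysis had 5 members higher and 5 lower of 19. The higher ones included ENO2 (2.79-fold) and HK2 (1.83-fold), while LDHA (-0.08), PGK1 (0.15) and GAPDH (0.05), common hypoxia-responsive enzymes, did not pass. HK2 rose at 1 of its 3 probe sets, the lowest of which was at -0.26, and its call was lost with averaged probe sets (0.15). SLC2A1, the main glucose transporter, rose 1.97-fold at its brightest probe set and had a log2 change of -0.10 at the other. Of 30 oxidative phosphorylation genes 8 fell and 2 rose (median -0.20). The 26.7% lower was close to the share among the 3955 brightest genes, of which 1222 fell. The count lower was 5 without adherent replicate 3 and under quantile normalization, and 16 with a variance trend and robust estimation. In cholesterol synthesis 13 of 19 genes fell and 0 rose (median -0.45), and all 3 of the uptake and regulatory genes among them fell. INSIG1, a sterol sensor that is itself a target of the pathway, read 9.06, 9.42 and 8.79 on the adherent arrays and 7.07, 7.37 and 7.59 on the sphere arrays (log2 change -1.74, SE 0.17, adjusted p = 1.5e-05 from limma). Of 12 fatty acid synthesis genes 6 fell and 0 rose, with SCD, the stearoyl desaturase, at 0.454 times and ACLY, which supplies acetyl-CoA, at 0.509 times the adherent level. SCD fell at 2 of its 4 probe sets.

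Metallothioneins, small cysteine-rich proteins that bind zinc and copper, rose in 6 of 8 cases (median 1.66). MT1X read 7.8, 7.68 and 7.84 on the adherent arrays and 10.84, 10.95 and 10.86 on the sphere arrays (log2 change 3.11, SE 0.14, adjusted p = 8e-08 from limma). The related MT2A read 8.98, 8.9 and 9.1 on the adherent arrays and 11.81, 11.84 and 11.76 on the sphere arrays. Their sequences are near-identical, so probe sets of 1 member can also catch others, and the rises of single members are uncertain. SLC30A1, which exports zinc and is switched on by it, read 5.69, 5.97 and 5.63 on the adherent arrays and 9.21, 9.44 and 9.62 on the sphere arrays (12.6-fold), with 2 of its 3 probe sets higher. SLC39A10, a zinc importer, moved the other way, with 11.13, 11.28 and 11.01 on the adherent arrays and 9.51, 9.51 and 9.66 on the sphere arrays (log2 change -1.58, SE 0.13, adjusted p = 3.58e-06 from limma). MTF1, the zinc-sensing transcription factor of these genes, did not pass the test (log2 change 0.02). Metal response elements, with the letters TGCGCNC or TGCACNC on either strand, lay in all 3 metallothionein windows held here, in 7 of 14 of the whole list (50%) and in 7940 of 27305 promoters (29.1%). Stretches of the 4 most changed members with a match are shown with matches in capitals, since the elements recur in those of MT1X, MT2A and MT1H.
SLC30A1, chr1:211579168-211579247, minus strand: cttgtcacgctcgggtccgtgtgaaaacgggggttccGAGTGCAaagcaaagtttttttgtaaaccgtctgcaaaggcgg
MT1X, chr16:56682348-56682427, plus strand: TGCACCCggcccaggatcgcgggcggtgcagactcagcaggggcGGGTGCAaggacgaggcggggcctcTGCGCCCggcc
MT2A, chr16:56608431-56608510, plus strand: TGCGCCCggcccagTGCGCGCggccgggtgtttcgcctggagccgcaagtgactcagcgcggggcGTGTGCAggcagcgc
MT1H, chr16:56669641-56669720, plus strand: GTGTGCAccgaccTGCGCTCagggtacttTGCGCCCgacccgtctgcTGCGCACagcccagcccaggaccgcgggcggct
Before their starts the MT1X, MT2A and MT1H windows held 4, 7 and 8 matches, overlapping ones included, and the SLC30A1 window 1.

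Growth factor signaling genes differed by role. Of 12 feedback genes of the ERK pathway 7 rose and 0 fell, among them DUSP6, a phosphatase of ERK, with 9.69, 9.91 and 9.87 on the adherent arrays and 10.94, 10.98 and 10.98 on the sphere arrays, and SPRY4, an inhibitor upstream of it (1.89-fold). Of 14 immediate early genes 5 rose, led by EGR1 (5.85-fold), and FOSL1 fell (log2 change -0.34), a call lost without adherent replicate 1 or 2 or sphere replicate 1 or 3. Receptors for insulin and growth factors were lower in 6 of 15 cases and higher in 1. ALK (log2 change -1.43), ERBB3 (log2 change -1.0) and INSR, the insulin receptor (log2 change -0.58), were among the falls. Of 5 adaptors 3 rose, GRB14 (2.1-fold), GRB10 and IRS2. The ligands FGF7 and PDGFA fell to 0.195 and 0.256 times the adherent level, and IGFBP2 rose 2.13-fold. FGF7 fell at 1 of its 3 probe sets and ERBB3 at 2 of 5. In the MYC network 4 of 11 genes rose and 3 fell (median -0.15). MYC rose 2.24-fold, MYCL 2.43-fold, and the antagonists MXD1 and MXI1 3.66-fold and 2.84-fold. MXD3, a relative of MXD1, fell to 0.478 times the adherent level, and MYCN (-0.20) did not pass. FOXO targets that insulin represses had 6 of 22 members higher and 5 lower, with CCNG2 up 2.12-fold and BCL2L11, the death factor BIM, at 0.533 times. Only 1 of 7 BCL2L11 probe sets was called, and with averaged probe sets the log2 change was -0.08 and the call was lost.

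In TGF-beta and BMP signaling, 6 of 9 target genes fell and 1 rose (median -0.68). ID3, an inhibitor of differentiation factors induced by BMP, read 9.45, 9.55 and 9.62 on the adherent arrays and 8.39, 8.41 and 8.33 on the sphere arrays, and TGFBI, a matrix protein named for its induction, fell to 0.487 times. The ligands BMP7 and BMP4 were lower (log2 change -1.2 and log2 change -0.98), alongside the antagonists GREM1 and LEFTY1, while BAMBI, a decoy receptor, rose 2.71-fold. YAP/TAZ targets fell in 10 of 24 cases with 1 rising (median -0.37), led by AJUBA and AMOTL2 (log2 change -2.08 and log2 change -1.82), both regulators of the Hippo pathway. CCN1 and CCN2, the most cited targets, did not pass (-0.47 and 0.92). WNT genes were balanced, at 6 higher and 6 lower of 35, with the receptor ROR1 up 3.19-fold and the stem cell receptor LGR5 down to 0.288 times. Of 13 Hedgehog genes 4 fell and 1 rose, GLI2 and GLI3 among the falls and HHIP, an inhibitor induced by the pathway, the rise (1.82-fold, at 2 of 4 probe sets). Of 16 integrins 4 fell and 0 rose, led by ITGA1, a collagen receptor (log2 change -1.54). ACTN1, which crosslinks actin at adhesions, fell to 0.551 times, while VCL, vinculin, rose 1.65-fold at 1 of its 2 probe sets. Among matrix enzymes LOX rose but its relatives LOXL1 and LOXL2 fell (log2 change -1.73 and, at 1 of 4 probe sets, log2 change -1.15).

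The muscle programme was lower in part. Of 42 genes of skeletal muscle differentiation 19 fell and 3 rose (median -0.30), mainly among fusion and sarcomere genes (12 of 21 lower, 1 higher). CKB, brain-type creatine kinase that is also made by myoblasts, read 8.69, 8.78 and 8.91 on the adherent arrays and 6.6, 6.63 and 6.52 on the sphere arrays, and TNNI1, slow troponin I, read 11.38, 11.26 and 11.34 on the adherent arrays and 9.45, 9.56 and 9.56 on the sphere arrays. MYOG, which starts terminal differentiation, read 9.89, 9.96 and 10.09 on the adherent arrays and 9.09, 9.02 and 9.09 on the sphere arrays (log2 change -0.91, SE 0.1, adjusted p = 2.79e-05 from limma), whereas MYOD1, MYF5 and PAX7 did not pass. At the neuromuscular junction the acetylcholine receptor subunits CHRNB1 and CHRNA1 fell to 0.304 and 0.643 times, while MUSK, the junction kinase, and RAPSN, which clusters receptors, rose 2.15-fold and 1.44-fold. Only 1 of the 3 MUSK probe sets was called. Among 20 targets of PAX3-FOXO1, 10 fell and 0 rose (median -0.54), with PIPOX at 0.319 and TFAP2B at 0.444 times the adherent level and FGFR4 (-0.23) and MYCN not past the threshold. PAX3 and FOXO1 probe sets may also read the fusion transcript, which was not separated here.

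Of the pluripotency factors 5 of 17 rose and 1 fell (median -0.05), the risers being KLF4 (3.12-fold), KLF2, MYC, SOX2 and KLF5 and the faller LIN28B, a block on let-7 (0.52 times). Without the probe sets marked for possible cross-hybridisation 2 factors rose, and KLF2 had a log2 change of 0.11 and lost its call. SOX2 read 7.14, 7.29 and 7.46 on the adherent arrays and 7.96, 8.69 and 8.41 on the sphere arrays at its brightest probe set and rose at 2 of 4. NANOG had no probe set past the threshold, nor had POU5F1, read only at a probe set it shares with other genes. PROM1, the surface protein CD133 that is used as a stem cell marker, read 9.92, 9.94 and 10.08 on the adherent arrays and 7.60, 7.53 and 7.72 on the sphere arrays at its only probe set (log2 change -2.37, SE 0.12, adjusted p = 1.42e-07 from limma). The sphere arrays of PROM1 all lay below the adherent ones, as those of SOX2 all lay above.

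Notch signaling passes between touching cells: ligands open the receptor, whose inner part joins RBPJ in the nucleus and switches on HES and HEY repressors. Of 40 measured pathway genes 11 rose and 9 fell (median 0.03). NOTCH1 read 8.03, 8.17 and 8.03 on the adherent arrays and 5.57, 5.74 and 5.58 on the sphere arrays at its brighter probe set (log2 change -2.44, SE 0.11, adjusted p = 9.18e-08 from limma), while the other, far dimmer, read 4.50, 4.05 and 4.14 and then 4.15, 4.40 and 4.12 (log2 change -0.01). NOTCH3 and NOTCH4 had no probe set past the threshold, and NOTCH2 had 1 of 5, shared with another gene (log2 change 0.37, adjusted p = 0.0439). The receptor genes thus gave no rise at a probe set of their own. Among ligands, DLL3 (1.69-fold), JAG1 (1.57-fold, at 1 of 6 probe sets) and DLL1 (1.22-fold) rose and JAG2 fell. LFNG, a glycosyltransferase that tunes receptors, and PSEN2, of the gamma-secretase, fell to 0.45 and 0.49 times, while NUMB, a Notch inhibitor, rose 2.3-fold from a dim signal.

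RBPJ rose at its dimmest probe set (4.69, 4.49 and 4.59 to 5.72, 6.85 and 6.60, log2 change 1.80) and did not pass at the brighter ones (0.17 and -0.07). Among targets, HEY1 read 6.74, 6.92 and 7.0 on the adherent arrays and 8.26, 8.73 and 8.48 on the sphere arrays (log2 change 1.6, SE 0.22, adjusted p = 0.000172 from limma), rising at both probe sets, while HES1 rose at 1 of 3 (1.58-fold). HES6, which opposes HES1 and favours muscle differentiation, read 8.94, 8.78 and 9.01 on the adherent arrays and 6.73, 6.96 and 6.8 on the sphere arrays (log2 change -2.08, SE 0.1, adjusted p = 1.59e-07 from limma). HEYL, a relative of HEY1, fell to 0.477 times the adherent level. The list of targets therefore split 2 higher and 2 lower among 10, with HES6, which opposes HES1, counted among the lower ones.

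**Figure D5:**
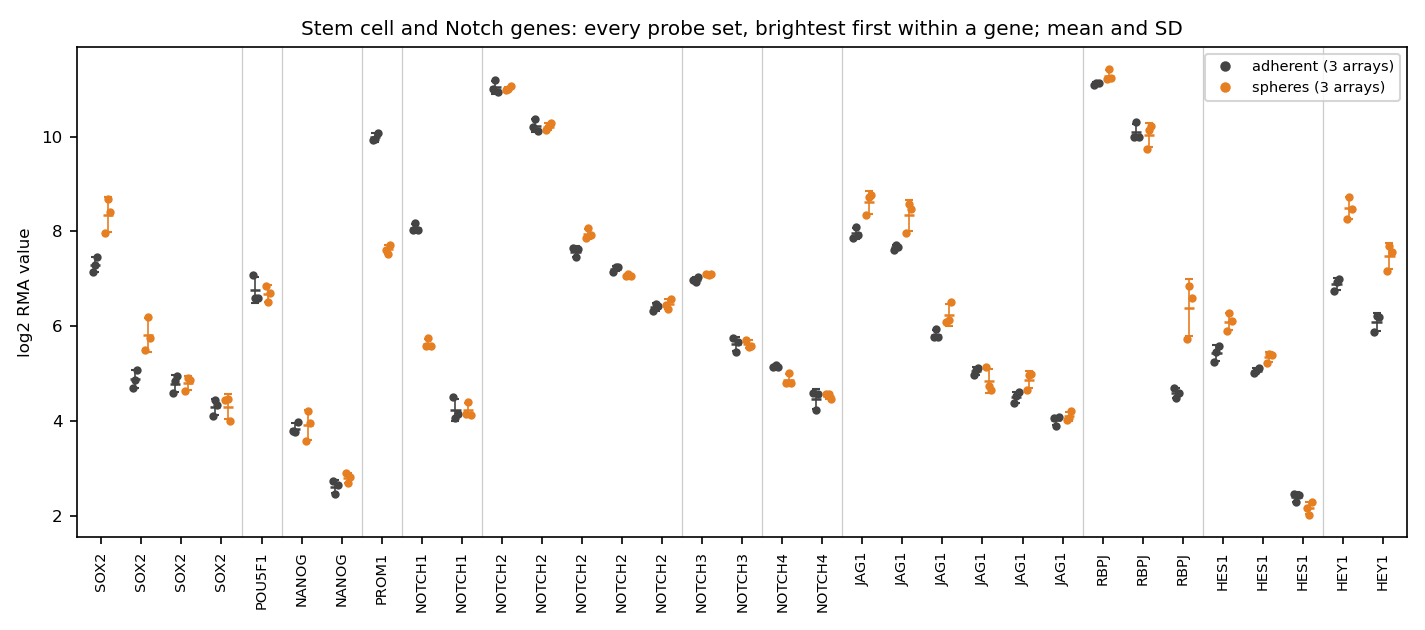
Log2 RMA values of the stem cell and Notch genes at every probe set on each adherent (grey) and sphere (orange) array, with mean and SD. Probe sets of 1 gene can disagree: NOTCH1 has a log2 change of -2.44 at 1 probe set and of -0.01 at the other, while both HEY1 probe sets rise.

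Clock genes were higher in 8 of 13 cases and lower in 0 (median 0.43). HLF, an output factor of the clock, read 4.46, 4.78 and 4.77 on the adherent arrays and 6.3, 6.74 and 6.44 on the sphere arrays (log2 change 1.82, SE 0.15, adjusted p = 3.9e-06 from limma), PER2, a core repressor, rose 2.01-fold, and BHLHE40, which is also a hypoxia gene, 3.22-fold. CLOCK (-0.07) and CRY1 (-0.39) did not pass. Of 18 p53 target genes 8 rose and 4 fell. FAS, a death receptor, DDB2, a DNA damage sensor, and TNFRSF10B were among the risers (log2 change 1.45, log2 change 1.19 and log2 change 1.1), and BAX, the pore-forming death factor, read 8.7, 8.4 and 8.56 on the adherent arrays and 6.82, 6.42 and 6.81 on the sphere arrays and fell at both its probe sets. MDM2, a standard target, did not pass (-0.30). Interferon targets had 8 of 24 higher and 1 lower, with IFI44 up 2.12-fold and most, including OAS1 (-0.10) and IFIT3 (0.03), not past the threshold. Of 8 drug efflux transporters 2 fell, led by ABCC5 (log2 change -1.53), and 0 rose, and ABCB1 (-0.04) and ABCG2 (0.11) did not pass. Without the probe sets marked for possible cross-hybridisation ABCC5 had a log2 change of -0.28 and lost its call. ABCC4, the other faller, had 1 probe set called lower and 2 called higher. With averaged probe sets its log2 change was 0.09. Aldehyde dehydrogenases had 3 of 9 higher, ALDH1A1 among them (1.35-fold), and 3 lower.

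Lineage markers showed no general gain. Of 13 neural markers 5 fell and 1 rose: NES, nestin of neural and muscle progenitors, read 11.81, 11.88 and 11.65 on the adherent arrays and 10.59, 10.25 and 10.34 on the sphere arrays, DCX, a microtubule protein of young neurons, 11.94, 12.14 and 11.85 on the adherent arrays and 10.28, 10.76 and 10.47 on the sphere arrays, and ENO2 was the riser. Of 12 adipogenic and osteogenic markers 1 rose, SPP1, osteopontin (1.97-fold at 1 of 2 probe sets), and 0 fell. The other lists are given by their counts. NRF2 targets had 3 of 20 higher and 5 lower, retinoic acid genes 5 of 14 and 4, glucocorticoid targets 4 of 13 and 0, iron genes 2 of 9 and 4, BCL2 family genes 2 of 15 and 4, fatty acid oxidation genes 3 of 18 and 4, actin and SRF targets 2 of 22 and 9, and collagens and matrix genes 6 of 34 and 6. Endothelial markers had 2 of 10 higher, VWF and ROBO4, each at 1 of 2 probe sets, and fibroblast markers 2 of 10 lower, COL1A2, at 1 of 3 probe sets, and PDGFRB. Several of these counts rest on single arrays: leaving out any 1 array gave 3 to 4 lower NRF2 targets, 2 to 4 higher retinoic acid genes, 2 to 3 higher glucocorticoid targets, 2 to 4 lower iron genes and 1 to 3 lower fatty acid oxidation genes, and it left 1 higher endothelial marker and 0 or 1 lower fibroblast marker.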

How the data were processed

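RNA from Rh30 cells was hybridised to Affymetrix U133 Plus 2.0 arrays. The deposited values are log2 values per probe set, which the authors made by RMA over all 9 arrays at once. Which RMA program was used is not given in the sources used here. The values were not transformed further.

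After 62 control probe sets were set aside, 54613 were fitted on all 9 arrays with limma 3.58.1 in R 4.3.3 (1 coefficient per group, 6 residual degrees of freedom), with Benjamini-Hochberg adjustment over all probe sets and a threshold of 0.05. The fit was tested on simulated data. Of the probe sets, 41091 carried 1 gene symbol, 1801 several and 11721 none. A gene was read at its brightest probe set with 1 symbol, which gave 19775 genes. P-values set each difference against the spread within groups, estimated over all 9 arrays. The small number of arrays limits the precision.

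Named genes were the 15 largest rises and 15 largest falls among called genes whose arrays do not overlap, up to 4 called members of each list and the largest in the opposite direction, and the stem cell and Notch genes of the study. Where space was short the text gives only part of the genes this rule selects, and members outside this rule were added after their values were seen. The members and lists were chosen with earlier results of these data known. List members without a probe set of their own in the files used were not analysed here. Alternatives were the sphere and adherent arrays alone, another normalization, centring, a brightness filter, other variance models, the replicate block, the methods' t-test, other probe set choices and each array left out. Promoter windows came from RefSeq, build GRCh38.p14.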

Additional observations from a re-analysis of the deposited data

How the results depend on the processing

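With the replicate number as a block, the genes higher in spheres numbered 2509, the genes lower in spheres 3055 and the probe sets changed in spheres 13562. The labels do not say whether same-numbered arrays are paired. Deviations of same-numbered sphere and adherent arrays correlated at 0.183, 0.053 and -0.008, and those of differently numbered arrays at -0.153 to 0.137. With 3 arrays in a group these correlations cannot settle pairing. Centring arrays on their medians gave 2365 higher and 3631 lower, and leaving out 1 array 2104 to 2389 higher and 2572 to 2993 lower. The 6 sphere and adherent arrays alone, without the xenograft spread, gave 3177 higher and 3763 lower. In that setting 17 amino acid genes and 17 endoplasmic reticulum genes rose, in place of 12 and 13. Averaging the probe sets of each gene left 361 genes at least 2-fold lower in spheres in place of 543. Among probe sets without the suffixes that mark possible cross-hybridisation (_x_at and _s_at), 9003 changed in place of 14185, out of fewer tested. The alternatives for counts of probe sets were added after seeing the data. With the suffixed probe sets left out, the log2 changes of FAS (-0.05), ASNS (-0.12), SLC2A1 (-0.1), FGFR2 (0.06), COL6A1 (-0.22), TSC22D3 (-0.27), BHLHE41 (-0.25), IDI1 (0.37), TKT (0.73) and ALDH6A1 (-0) turned in sign, as did STC2 (0.08), PKM (0.52) and ABCC4 (0.09) with averaged probe sets. The cause was not tested. Leaving out suffixed probe sets also lowered the counts of 21 of 49 gene lists by over 1.5 times, out of fewer measured. It left 9 higher ATF4 stress regulators, 11 hypoxia genes, 6 lysosome and autophagy genes, 5 clock genes, 4 p53 targets, 4 tRNA synthetases, 4 metallothionein and zinc genes and 2 pluripotency factors, and 8 lower cholesterol genes, 6 PAX3-FOXO1 targets, 6 Polycomb and DNA methylation enzymes and 3 fatty acid synthesis genes. Under the methods' t-test with Benjamini-Hochberg adjustment 15 of 211 named genes lost their call, among them CDKN2B, FAS, MUSK and SPP1. Each array left out cost 10 to 12 named genes their call, HSPH1, TAGLN2, ROBO4, COL1A2 and ERRFI1 every time. Dim probe sets limit fold changes, since background compresses them.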

Other observations

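Families read by gene symbol, chosen after their values were seen and given without a test, add groups that the lists left out. Of 15 alpha and beta tubulins, the subunits of microtubules, 7 fell and 1 rose (median log2 change -0.35). TUBB6 read 10.26, 10.26 and 10.27 on the adherent arrays and 8.95, 8.74 and 8.86 on the sphere arrays, and TUBB4B read 12.35, 12.30 and 12.36 and then 10.98, 11 and 10.9. TUBB2B was the riser, with 8.24, 8.43 and 8.25 and then 8.66, 9.25 and 9.16. Their sequences are alike, so probe sets can catch several members. Of 75 mitochondrial ribosomal proteins 26 fell (34.7%) and 4 rose, beside the 16.3% of all genes that fell, while the cytosolic ribosomal proteins of the report stayed near level. The mitochondrial ones were bright, with a median adherent value of 9.33. Among the 3955 brightest genes 1222 fell, a share close to theirs. Of 8 olfactomedin family genes, which encode secreted glycoproteins, 4 fell and 0 rose, with OLFM4 at 5.47, 5.55 and 5.43 and then 3.20, 3.11 and 3.28.

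Of 516 zinc finger genes 144 rose (27.9%) and 52 fell (10.1%), beside 13.5% and 16.3% of all genes. Of 1856 antisense, divergent, intronic and long intergenic transcripts 180 rose (9.70%) and 70 fell (3.77%). Their median adherent value was 3.65, so most were dim. Among the 3955 dimmest genes 107 rose and 81 fell, and among the next 3955 genes 271 rose and 195 fell. The long noncoding RNA MALAT1, which stays in the nucleus, read 9.36, 9.17 and 9.18 and then 10.95, 11.44 and 11.16, and MEG3, an imprinted noncoding RNA, read 9.52, 8.97 and 9.33 and then 11.20, 10.97 and 11.10. Of 5 alpha-arrestins, which carry membrane proteins to degradation, 3 rose and 0 fell: ARRDC3, ARRDC4, at 6.32, 6.41 and 6.48 and then 8.22, 8.43 and 8.56, and TXNIP, at 10.67, 10.58 and 10.79 and then 11.92, 12.16 and 12.11. The ACTB 3′ bias was higher on the sphere arrays, and its part in the values of these transcripts was not tested.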
